A study of Mustela putorius furo with 9 samples.

Results

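NBL-7 cells, a line that the labels call ferret lung epithelial cells, were compared between 3 libraries titled PBS and 3 libraries titled Ep1. These are 6 of the 9 RNA sequencing libraries of a study of particulate matter and cholesterol metabolism. The treatment label of the PBS-titled libraries is particulate matter at 500 µg/mL, and that of the Ep1 libraries is untreated. PBS is also the common abbreviation of phosphate-buffered saline, so title and treatment label disagree for this group, and every difference below is a difference between libraries with these titles and labels. The other 3 libraries, titled Ep2 and labelled 250 µg/mL, entered the shared estimate of the spread, and their means are given beside some genes. All groups were grown in DMEM with FBS. The exposure time and the kind of particle were not given in these sources. A mink lung line carries the same name, and the species of the cells was not tested. The labels do not mention separate cultures for the replicates. P-values here therefore reflect the spread between sequenced libraries only, and that spread may be technical.

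Expression was given as FPKM, a fragment count divided by gene length and library depth, so levels of genes of different length can be set side by side. Genes with at least 1 FPKM in 3 or more of the 9 libraries were tested, which were 11840 of 28494 genes, and 16654 genes were below this minimum. The PBS columns 1, 2 and 3 of the table held 12734952, 12628562 and 13264127 fragments, and Ep1_1, Ep1_2 and Ep1_3 held 13238524, 13533480 and 12974985 fragments. At this depth 1 fragment on 1000 bases equalled 0.0739 to 0.0802 FPKM over the 9 libraries. The PBS columns share only the stem PBS with the titles of their group and cannot be matched to single titles.

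Lung epithelial cells meet inhaled particles first. Polycyclic aromatic hydrocarbons on such particles are ligands of the aryl hydrocarbon receptor, and oxidants activate the transcription factor NRF2. Cells hold their cholesterol steady by making it from acetyl-CoA under the control of SREBP2 and by exporting it through the transporters ABCA1 and ABCG1 under the control of the sterol-sensing receptors LXR. Cholesterol metabolism stands in the title of the study, and sterol genes are described first among the gene groups.

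Library Ep1_1 stood apart from the other Ep1 libraries. Its log2(FPKM + 1) value was nearer to the PBS-titled mean than to the mean of the other Ep1 libraries for 7353 of 11840 genes (62.1%), against 4018 genes for Ep1_2 and 3547 genes for Ep1_3. The SD over genes of the log2 difference between Ep1_1 and a PBS-titled library was 0.229, 0.219 and 0.200 for columns 1, 2 and 3. Between Ep1_1 and Ep1_2 it was 0.243, and between Ep1_1 and Ep1_3 it was 0.265. By this measure Ep1_1 lay closer to each PBS-titled library than to either library of its own group. Other libraries crossed group lines in part. For PBS column 3 the SD was 0.200 with Ep1_1 and 0.209 with PBS column 1. For Ep1_3 it was 0.238 with Ep2_1 and 0.265 with Ep1_1. The nearest library to PBS column 3 and to Ep1_3 was still of the same group. Results are therefore given with and without Ep1_1. The choice of this library rests on these same values. Leaving it out tends to widen the difference of genes at which it lay nearer to the PBS-titled mean. Calls without Ep1_1 are thus no independent support for a difference between the groups. Without Ep1_2 or Ep1_3 instead, 0 and 3 genes were called, against 1887 without Ep1_1. An adjusted p given below without Ep1_1 is therefore not typical of leaving out an Ep1 library.

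The labelled cell type was held against its markers. Of 26 lung epithelial and epithelial markers, 25 were in the table and 8 were tested. NKX2-1, a transcription factor of lung identity, averaged 14.9 FPKM in the PBS-titled libraries and 14.4 FPKM in the Ep1 libraries. The keratin KRT7 averaged 1050 FPKM in the PBS-titled and 951 FPKM in the Ep1 libraries. The keratin KRT8 averaged 178 FPKM in the PBS-titled libraries and 180 FPKM in the Ep1 libraries. The epithelial adhesion gene EPCAM, the surfactant gene SFTPC, the secretory cell gene SCGB3A2, the basal cell gene KRT5 and the alveolar gene AQP5 were listed at 0 in all 6 libraries. CDH1, the epithelial cadherin, averaged 0.0867 FPKM in the PBS-titled and 0.0485 FPKM in the Ep1 libraries. KRT18, the usual partner of KRT8, was listed at 0 in 5 of the 6 libraries. A listed 0 does not show that a gene was silent: 12 of the 13 protein genes encoded in mitochondria, which every cell uses, were also listed at 0 in all 6 libraries.

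Markers of other cell types were held against both groups. The summed level of 9 fibroblast markers was 1.98 to 3.73 FPKM in the PBS-titled libraries and 2.83 to 3.67 FPKM in the Ep1 libraries, with DCN, LUM, POSTN and DPT at 0. The sum of 11 leukocyte markers was 2.12 to 3.11 FPKM in the PBS-titled and 2.95 to 3.60 FPKM in the Ep1 libraries, with CD14, ITGAM and LAPTM5 among those at 0. The sum of 10 endothelial markers was 15.9 to 18.1 FPKM in the PBS-titled and 12.3 to 13.3 FPKM in the Ep1 libraries, with CDH5 and ERG at 0. Nearly all of that last sum was TEK, an angiopoietin receptor with a level like that of NKX2-1, at 17.6, 16.5 and 15.6 FPKM in the PBS-titled libraries and 12.6, 12.9 and 11.97 FPKM in the Ep1 libraries. Their part in the results was not tested. In bulk RNA, fewer cells of a type and less RNA per cell cannot be told apart.

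The difference between the groups was small. Of 11840 genes, 17 (0.144%) passed limma's test at a Benjamini-Hochberg adjusted p of 0.05, with 9 higher (0.0760%) and 8 lower (0.0676%) in the PBS-titled libraries. The unadjusted p was under 0.05 for 2648 genes, of which 1501 were higher and 1147 lower. The PBS-titled and Ep1 values did not overlap for 1520 genes that were higher (12.8%) and 1289 that were lower (10.9%). The median absolute log2 difference was 0.113 over all tested genes, beside a median standard error of 0.0891, and 10 genes differed by at least 1 on the log2(FPKM + 1) scale. That scale understates the difference of genes with low values. None of the 17 passed without Ep1_2 or with no minimum on FPKM, and without Ep1_1 all 17 passed among 1887 genes.

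Of the 17 called genes, 12 have a symbol. In the PBS-titled libraries ANGPTL2, GPX1, MMP13, SLC39A2, SLIT3, MRPL27, PMEPA1, SDF2L1 and CA9 rose, and ABCG1, IL1A and MDM2 fell. Their products work in the matrix and outside the cell, in peroxide removal, zinc uptake, protein folding, pH control and cholesterol export, in a cytokine signal and in the turnover of p53. For each of the 12, the 3 PBS-titled values lay on one side of the 3 Ep1 values.

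**Figure D1:**
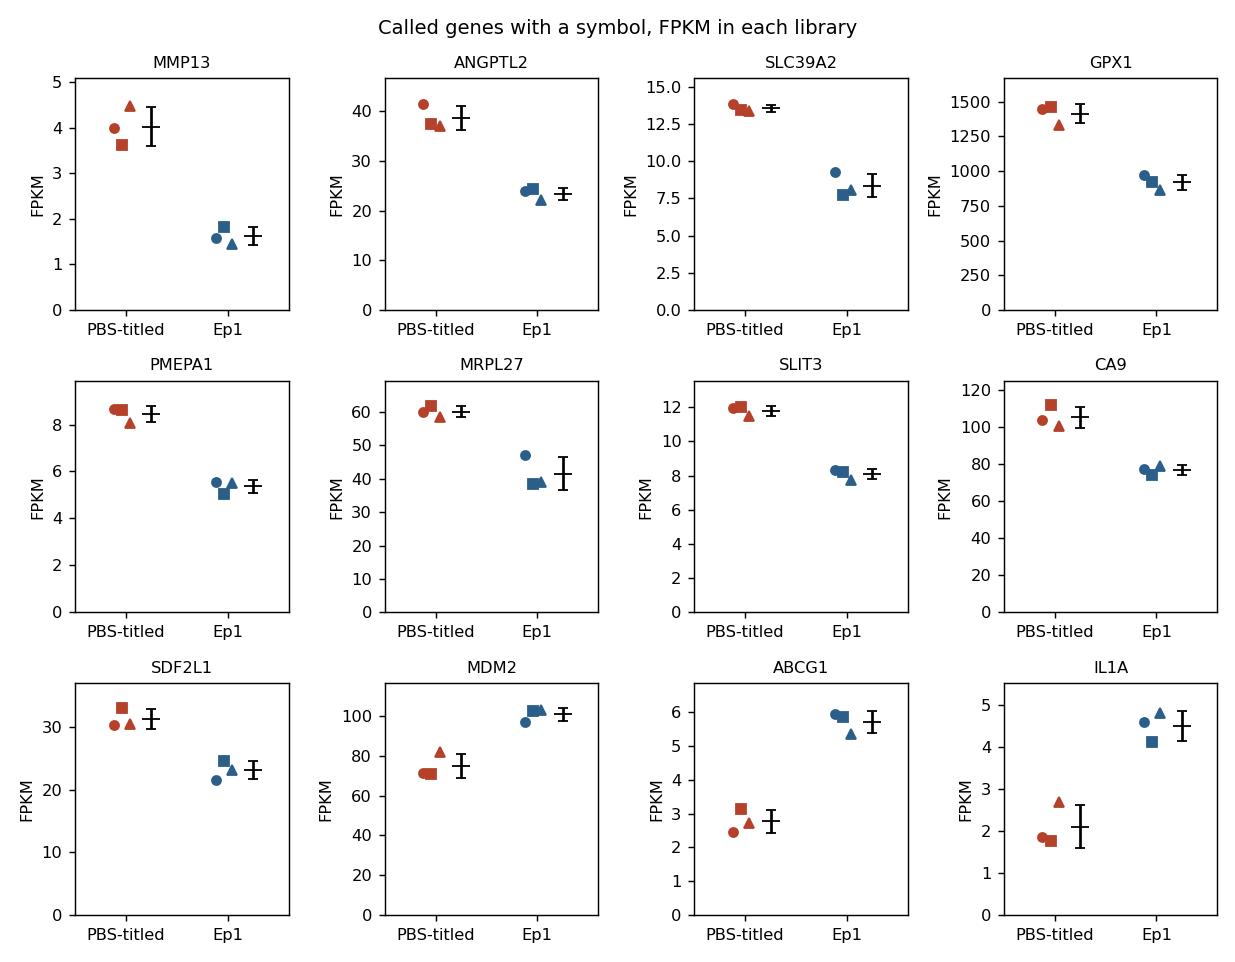
FPKM (vertical axis, from 0) of the 12 called genes with a symbol in each PBS-titled library (red) and each Ep1 library (blue); circles, squares and triangles are the libraries 1, 2 and 3 of a group, and bars give the mean and SD of 3 libraries. The groups do not overlap in any panel: 9 genes are higher in the PBS-titled libraries, and MDM2, ABCG1 and IL1A are lower.

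MMP13, ANGPTL2, SLIT3 and PMEPA1 were 4 of the 9 higher genes. MMP13, a collagenase, measured 4.0, 3.62 and 4.47 FPKM in the PBS-titled libraries and 1.58, 1.83 and 1.45 FPKM in the Ep1 libraries, a ratio of mean FPKM of 2.49 (log2 difference 0.94, SE 0.12, limma adjusted p = 0.0240). Each PBS-titled value was above every Ep1 value, on 131 to 170 fragments a library against 54 to 71. ANGPTL2, a secreted angiopoietin-like glycoprotein, measured 41.4, 37.4 and 37.0 FPKM in the PBS-titled libraries and 24.0, 24.3 and 22.1 FPKM in the Ep1 libraries (log2 difference 0.70, SE 0.07, adjusted p = 0.00646). Its ratio of means was 1.65, and all its PBS-titled values were higher. SLIT3, a secreted ligand of ROBO receptors, measured 11.9, 11.98 and 11.4 FPKM in the PBS-titled libraries, against 8.31, 8.21 and 7.72 FPKM in the Ep1 libraries (log2 difference 0.49, SE 0.07, adjusted p = 0.0257). PMEPA1, a membrane protein that restrains TGF-beta signalling, measured 8.65, 8.62 and 8.07 FPKM in the PBS-titled libraries, against 5.55, 5.04 and 5.52 FPKM in the Ep1 libraries (log2 difference 0.57, SE 0.08, adjusted p = 0.0293). The Ep1_1 values of these 4 genes lay with those of the other Ep1 libraries.

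The remaining higher genes act inside the cell or at its surface. GPX1, the selenium-dependent peroxidase that reduces hydrogen peroxide with glutathione, was the most abundant called gene, at 1446, 1465 and 1335 FPKM in the PBS-titled libraries and 974, 919 and 864 FPKM in the Ep1 libraries. It rose by 0.62 on the log2 scale (SE 0.07, adjusted p = 0.00851), a ratio of means of 1.54. SLC39A2, a zinc importer, measured 13.8, 13.4 and 13.4 FPKM in the PBS-titled libraries and 9.23, 7.74 and 8.08 FPKM in the Ep1 libraries (log2 difference 0.64, SE 0.09, adjusted p = 0.0257). The PBS-titled values of SLC39A2 had an SD of 0.240 FPKM, and those of Ep1 one of 0.783 FPKM. MRPL27, a protein of the large mitochondrial ribosomal subunit, measured 59.8, 61.6 and 58.5 FPKM in the PBS-titled libraries, against 47.2, 38.3 and 39.0 FPKM in the Ep1 libraries (log2 difference 0.53, SE 0.08, adjusted p = 0.0257), with Ep1_1 the highest Ep1 library. SDF2L1, an endoplasmic reticulum protein of the chaperone machinery, measured 30.3, 33.0 and 30.5 FPKM in the PBS-titled libraries, against 21.6, 24.5 and 23.1 FPKM in the Ep1 libraries (log2 difference 0.42, SE 0.06, adjusted p = 0.0337). It had the smallest log2 difference of the higher genes, and its groups did not overlap. CA9, a surface carbonic anhydrase and a classic hypoxia target, measured 104, 112 and 101 FPKM in the PBS-titled libraries, against 77.6, 73.9 and 79.2 FPKM in the Ep1 libraries (log2 difference 0.45, SE 0.07, adjusted p = 0.0411).

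Among the genes that fell, ABCG1, which moves cholesterol out of the cell to lipoproteins, measured 2.46, 3.14 and 2.71 FPKM in the PBS-titled libraries and 5.96, 5.85 and 5.34 FPKM in the Ep1 libraries. Its ratio of mean FPKM was 0.484 (log2 difference -0.84, SE 0.09, adjusted p = 0.00646), on 95 to 120 fragments a library against 210 to 240. IL1A, the cytokine interleukin-1 alpha, measured 1.85, 1.75 and 2.68 FPKM in the PBS-titled libraries and 4.58, 4.11 and 4.79 FPKM in the Ep1 libraries, a ratio of 0.466 (log2 difference -0.84, SE 0.12, adjusted p = 0.0257). The values rest on 44 to 71 fragments in the PBS-titled libraries and 111 to 124 in the Ep1 libraries, and they did not overlap. MDM2, the ubiquitin ligase that turns over p53, measured 71.6, 71.1 and 82.0 FPKM in the PBS-titled libraries and 97.2, 103 and 103 FPKM in the Ep1 libraries (log2 difference -0.43, SE 0.07, adjusted p = 0.0356). PBS column 3 was the PBS-titled library nearest to Ep1 for both IL1A and MDM2. The 5 called entries without a symbol were all lower, by -1.02 to -0.52 on the log2 scale (adjusted p = 0.00646 to 0.0257).

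The calls depended on single libraries. All 12 calls were lost without Ep1_2, with adjusted p-values of 0.0520 to 0.191, and those of ANGPTL2 and ABCG1 were lost under no other omission. The call of GPX1 was also lost without Ep1_3 (highest adjusted p over the libraries left out 0.0604), and that of MMP13 without Ep1_3 or PBS column 1 (0.111). The calls of IL1A (0.125), SLC39A2 (0.131), PMEPA1 (0.182) and CA9 (0.227) were also lost without Ep1_3, PBS column 1, PBS column 2 or Ep2_3. Those of MRPL27 (0.162), SDF2L1 (0.220) and MDM2 (0.223) were also lost without these or Ep2_2, and that of SLIT3 (0.162) without Ep1_3, PBS column 1, PBS column 2 or Ep2_2. All 17 kept their direction in every alternative in which they were tested. For the 12 with a symbol the groups did not overlap, so leaving out a library could not have reversed the direction. The log2 difference of ANGPTL2 stayed between 0.65 and 0.73 and that of ABCG1 between -0.91 and -0.78 as each library was left out.

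**Figure D2:**
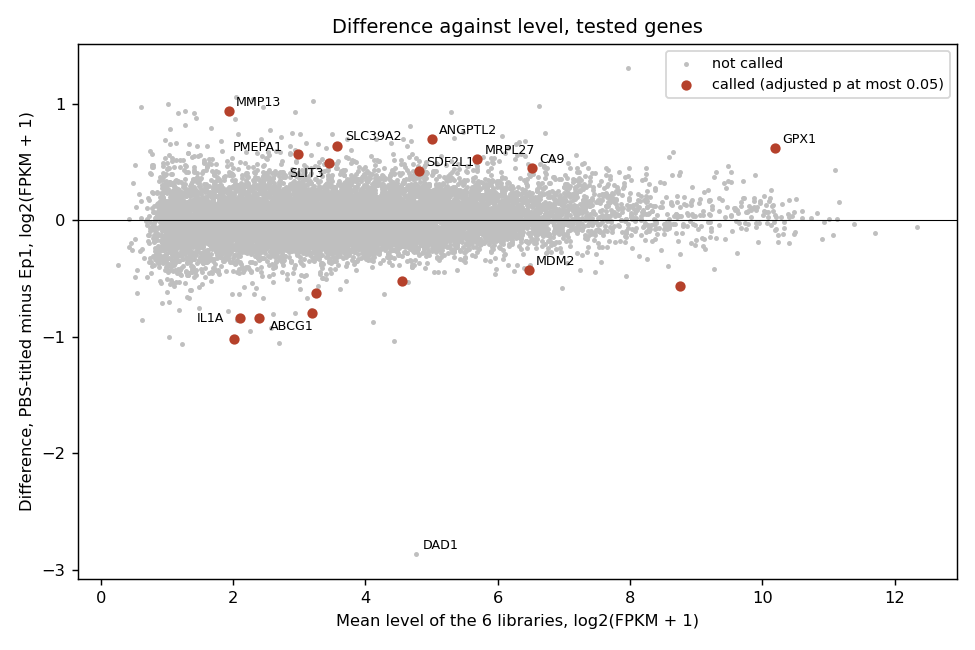
Log2 difference, PBS-titled minus Ep1 (vertical axis), against the log2 of the mean FPKM of the 6 libraries plus 1 (horizontal axis), for 11840 tested genes; red points are the 17 called genes, with the 12 that have a symbol named. Most genes lie near 0, the called genes differ by 0.42 to 1.02 in size, and DAD1, far below the rest at -2.87, was not called.

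The Ep2 libraries, labelled 250 µg/mL, give the level of the same genes in a further group. ANGPTL2 averaged 38.6 FPKM in the PBS-titled libraries, 21.9 FPKM in Ep2 and 23.4 FPKM in Ep1. GPX1 averaged 1415 FPKM in the PBS-titled libraries, 845 FPKM in Ep2 and 919 FPKM in Ep1, and MMP13 averaged 4.03 FPKM in the PBS-titled libraries, 2.06 FPKM in Ep2 and 1.62 FPKM in Ep1. For these 3 genes the Ep2 mean lay nearer to Ep1 than to the PBS-titled mean. ABCG1 averaged 2.77 FPKM in the PBS-titled libraries, 5.69 FPKM in Ep2 and 5.72 FPKM in Ep1. IL1A averaged 2.09 FPKM in the PBS-titled libraries, 5.23 FPKM in Ep2 and 4.49 FPKM in Ep1, and MDM2 averaged 74.9 FPKM in the PBS-titled libraries, 111 FPKM in Ep2 and 101 FPKM in Ep1. Of the 12 called genes with a symbol, the 3 means ran in the order of the labelled dose for 2, MMP13 and ABCG1, and the Ep2 and Ep1 means of ABCG1 differed by less than the SD within either group.

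Cholesterol synthesis genes were higher in the PBS-titled libraries in most cases, with no gene called. Of 18 tested genes of the pathway 0 were called, 16 had a difference above 0, 9 did not overlap and were higher, and 0 did not overlap and were lower. Of all tested genes 12.8% were higher and 10.9% lower without overlap, and each such count of a list below stands against these shares. The median log2 difference was 0.30 (range -0.17 to 0.56), beside 0.00265 over all tested genes. MVD, the decarboxylase that makes isopentenyl diphosphate, measured 97.3, 104 and 97.8 FPKM in the PBS-titled libraries and 77.3, 63.9 and 62.4 FPKM in the Ep1 libraries (log2 difference 0.56, SE 0.14, adjusted p = 0.0932). ACAT2, the thiolase of the first step, measured 116, 125 and 128 FPKM in the PBS-titled libraries and 90.7, 82.1 and 96.1 FPKM in the Ep1 libraries (log2 difference 0.45, SE 0.12, adjusted p = 0.105). For both genes the groups did not overlap, and Ep1_1 was the highest Ep1 library for MVD only.

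HMGCS1, which makes HMG-CoA, measured 165, 197 and 222 FPKM in the PBS-titled libraries and 147, 125 and 170 FPKM in the Ep1 libraries. Those values overlapped, and the 95% interval of the log2 difference ran from -0.11 to 0.92 (adjusted p = 0.325). SQLE, the squalene epoxidase, measured 200, 207 and 224 FPKM in the PBS-titled libraries and 173, 175 and 189 FPKM in the Ep1 libraries (log2 difference 0.23, interval -0.01 to 0.48, adjusted p = 0.248). The spread between libraries of a group was wider at HMGCS1 (SE of the log2 difference 0.23) than at SQLE (SE 0.11). Without Ep1_1, 4 of the 18 genes were called higher and 0 lower, beside 9.21% and 6.81% of 11779 genes in that fit, with adjusted p = 0.0224 for MVD.

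**Figure D3:**
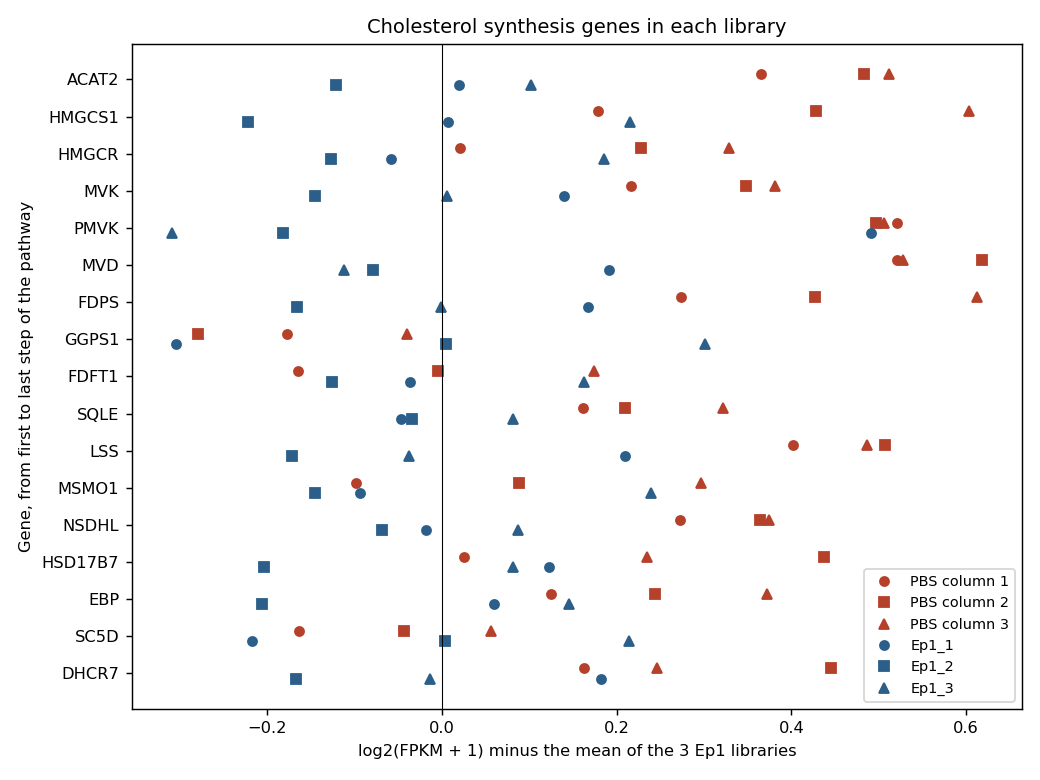
Log2(FPKM + 1) of 17 cholesterol synthesis genes (vertical axis, from the first to the last step) in each PBS-titled library (red) and each Ep1 library (blue), after the mean of the 3 Ep1 libraries was taken off (horizontal axis). All 3 PBS-titled libraries lie to the right of all 3 Ep1 libraries for 8 genes, among them ACAT2, MVD and SQLE, and no gene drawn shows the reverse.

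Sensors and uptake genes of the same pathway showed little difference. Of 15 tested genes 0 were called, 5 did not overlap and were higher, 1 did not overlap and was lower, and the median was 0.03. MBTPS1, a protease that releases SREBP, measured 45.9, 46.6 and 44.8 FPKM in the PBS-titled and 43.8, 40.0 and 41.3 FPKM in the Ep1 libraries (log2 difference 0.13, adjusted p = 0.182). MYLIP, a ubiquitin ligase and an LXR target, measured 5.52, 7.06 and 6.51 FPKM in the PBS-titled libraries and 7.76, 7.90 and 7.51 FPKM in the Ep1 libraries (log2 difference -0.25, adjusted p = 0.148). The values of both genes did not overlap between the groups. Of 15 genes of fatty acid synthesis and desaturation 0 were called and 2 were higher without overlap, with a median of 0.05; SCD, the stearoyl-CoA desaturase, measured 133, 139 and 139 FPKM in the PBS-titled libraries and 120, 114 and 126 FPKM in the Ep1 libraries (adjusted p = 0.235).

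Genes of cholesterol export and LXR had differences of both signs, and ABCG1 was the 1 called. Of 9 tested genes 1 fell, 3 were lower and 1 higher without overlap, and the median was -0.02. A difference above 0 was seen in 4 and below 0 in 5, over a range of -0.84 to 0.36. Without Ep1_1, 1 was called higher and 2 lower, beside 9.21% and 6.81% of all genes in that fit. ABCA1, the transporter that loads cholesterol onto apolipoprotein A-I, measured 2.40, 2.36 and 2.28 FPKM in the PBS-titled libraries and 3.92, 4.55 and 4.14 FPKM in the Ep1 libraries (log2 difference -0.63, SE 0.12). The groups lay far apart relative to their spread, but the adjusted p was 0.0606, and it was 0.0144 without Ep1_1. NR1H3, the gene of LXR alpha, measured 0.993, 0.967 and 0.964 FPKM in the PBS-titled and 1.14, 1.02 and 1.06 FPKM in the Ep1 libraries. It was not called, and it was named after its values were seen. It was among 19 genes with at least 1 FPKM in each Ep1 library and less in each PBS-titled library. All its values lay close to that cutoff, so its place among the 19 does not show a change in LXR.

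Genes of the aryl hydrocarbon receptor pathway had a median difference below 0. The table holds 10 genes of the receptor and its targets, of which 7 were tested, 0 were called, 1 was higher and 1 lower without overlap, and the median of -0.156 was the lowest of the 47 lists with at least 5 tested members. The inflammatory list (-0.154) and the mesenchymal list (-0.151) were close to it. TIPARP, a target that limits the receptor, measured 55.7, 61.9 and 65.1 FPKM in the PBS-titled libraries and 72.5, 80.4 and 86.9 FPKM in the Ep1 libraries (log2 difference -0.39, SE 0.08, adjusted p = 0.0634, and 0.00593 without Ep1_1). AHR, the receptor itself, measured 12.8, 12.6 and 15.3 FPKM in the PBS-titled libraries and 15.3, 17.9 and 18.0 FPKM in the Ep1 libraries (log2 difference -0.31, SE 0.10, adjusted p = 0.121). The TIPARP values did not overlap, whereas PBS column 3 and Ep1_1 met at AHR. The adjusted p of TIPARP was 0.207 to 0.231 without PBS column 1, PBS column 2, Ep1_2 or Ep1_3, and 0.0640 without PBS column 3.

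Genes of the NRF2 pathway were mixed. Of 19 tested genes 0 were called, 5 were higher and 2 lower without overlap, and the median was 0.01. A difference above 0 was seen in 10 and below 0 in 9, over a range of -0.28 to 0.56. The 3 genes described next had the lowest p of the list, and all were higher. HMOX1, the inducible heme oxygenase, measured 5.38, 5.37 and 5.49 FPKM in the PBS-titled libraries and 4.56, 2.99 and 2.74 FPKM in the Ep1 libraries (log2 difference 0.56, SE 0.15, adjusted p = 0.0958). PGD, an enzyme of the pentose phosphate pathway that yields NADPH, measured 121, 138 and 129 FPKM in the PBS-titled libraries and 114, 91.3 and 93.8 FPKM in the Ep1 libraries (log2 difference 0.37, adjusted p = 0.0860). KEAP1, the adaptor through which NRF2 is degraded, measured 78.1, 78.1 and 72.0 FPKM in the PBS-titled libraries, against 68.9, 61.5 and 56.7 FPKM in the Ep1 libraries (log2 difference 0.29, adjusted p = 0.0932). Ep1_1 was the Ep1 library nearest to the PBS-titled ones for all 3 genes, and without it their adjusted p-values were 0.00593, 0.00639 and 0.00832 in this order. Without Ep1_2 they were 0.254, 0.249 and 0.248. Of the 19 genes 4 were called higher and 1 lower without Ep1_1, beside 9.21% and 6.81% of all genes in that fit. NQO1 was below the minimum and was not tested.

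Selenoproteins and peroxide-removing enzymes held the called gene GPX1. Of 10 tested genes of selenoproteins and their synthesis 1 rose, 6 were higher and 0 lower without overlap, and the median was 0.18. Of 14 genes of peroxide and superoxide removal 1 rose, 4 were higher and 0 lower without overlap, and the median was 0.08. Without Ep1_1, 4 of the 10 and 5 of the 14 were called higher, beside 9.21% of all genes in that fit. Of 12 tested genes of the metal response and iron handling 0 were called, 1 was higher and 3 lower without overlap; FTH1, the ferritin heavy chain that stores iron, measured 502, 533 and 513 FPKM in the PBS-titled libraries and 563, 577 and 576 FPKM in the Ep1 libraries (log2 difference -0.15, SE 0.05, adjusted p = 0.125).

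Hypoxia and glycolysis genes are linked through the factor HIF1. Of 19 tested hypoxia genes 1, CA9, rose, 4 were higher and 3 lower without overlap, and the median was 0.04. Of 17 glycolysis genes 0 were called, 7 were higher and 1 lower without overlap, and the median was 0.13. TPI1, the triosephosphate isomerase, measured 351, 362 and 326 FPKM in the PBS-titled libraries and 295, 240 and 228 FPKM in the Ep1 libraries (log2 difference 0.45, SE 0.09, adjusted p = 0.0655). PGAM1, a phosphoglycerate mutase, measured 713, 713 and 708 FPKM in the PBS-titled libraries and 644, 627 and 614 FPKM in the Ep1 libraries (log2 difference 0.18, SE 0.05, adjusted p = 0.103). Both genes were without overlap, and without Ep1_1 7 of the 17 were called higher and 0 lower, beside 9.21% and 6.81% of all genes in that fit.

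Protein folding and stress genes had differences of both signs. Of 21 unfolded protein response genes 1, SDF2L1, rose, 8 were higher and 1 lower without overlap, and the median was 0.05. Of 14 heat shock genes 0 were called, and 4 were higher and 0 lower without overlap; HSPE1, the mitochondrial co-chaperone, measured 358, 355 and 313 FPKM in the PBS-titled libraries and 283, 255 and 240 FPKM in the Ep1 libraries (log2 difference 0.40, SE 0.07, adjusted p = 0.0606). Of 22 integrated stress response genes 0 were called, and 2 were higher and 3 lower without overlap. Among them ATF3, a stress-induced transcription factor, measured 25.1, 26.8 and 28.6 FPKM in the PBS-titled libraries and 38.9, 33.9 and 37.6 FPKM in the Ep1 libraries (log2 difference -0.44, SE 0.08, adjusted p = 0.0606). HSPE1 and ATF3 thus had differences of like size and opposite sign.

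Of 22 tested p53 targets 1, MDM2, fell, 5 were lower and 0 higher without overlap, and the median was -0.09. Of 17 caspase and BCL2 family genes 0 were called, and 3 were higher and 3 lower without overlap. BIRC5, the mitotic and anti-apoptotic gene survivin, measured 112, 113 and 98.6 FPKM in the PBS-titled libraries and 92.0, 82.0 and 84.4 FPKM in the Ep1 libraries (log2 difference 0.32, SE 0.07, adjusted p = 0.0689). BAD, a promoter of apoptosis, measured 25.3, 25.2 and 22.7 FPKM in the PBS-titled libraries and 20.6, 14.2 and 16.0 FPKM in the Ep1 libraries (log2 difference 0.52, SE 0.13, adjusted p = 0.0888). A gene that limits cell death and a gene that promotes it were therefore both without overlap and on the same side.

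Few inflammatory genes were expressed. The table holds 19 cytokine and mediator genes, of which 7 were tested. Of these 1, IL1A, fell, 0 were higher without overlap, and the median was -0.15. Of 21 NF-kappa-B pathway genes 0 were called, and 3 were higher and 2 lower without overlap. NFKBIA, the inhibitor and target of NF-kappa-B, measured 56.5, 63.1 and 67.8 FPKM in the PBS-titled libraries and 77.3, 68.8 and 66.1 FPKM in the Ep1 libraries, which overlapped (adjusted p = 0.224). Of 12 MAP kinase feedback genes 0 were called, and 0 were higher and 3 lower without overlap. DUSP1, a phosphatase that shuts off MAP kinases, measured 53.03, 50.9 and 59.1 FPKM in the PBS-titled libraries and 70.6, 64.7 and 68.9 FPKM in the Ep1 libraries (log2 difference -0.32, SE 0.06, adjusted p = 0.0655). JAK2, the kinase of many cytokine receptors, measured 18.1, 18.6 and 21.7 FPKM in the PBS-titled libraries and 24.96, 28.6 and 32.3 FPKM in the Ep1 libraries (log2 difference -0.53, SE 0.09, adjusted p = 0.0593). Both were without overlap, and both were called without Ep1_1 (adjusted p = 0.0224 for DUSP1 and 0.00401 for JAK2).

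Junction, keratin and mesenchymal genes had differences of both signs. KRT19, a simple epithelial keratin, measured 276, 261 and 239 FPKM in the PBS-titled libraries and 219, 194 and 168 FPKM in the Ep1 libraries (log2 difference 0.42, SE 0.09, adjusted p = 0.0714). F11R, the tight junction protein JAM-A, measured 33.6, 36.0 and 31.8 FPKM in the PBS-titled libraries, against 29.0, 22.3 and 21.3 FPKM in the Ep1 libraries (log2 difference 0.48, SE 0.10, adjusted p = 0.0707). JUP, a catenin of desmosomes, was on the other side, at 56.5, 59.7 and 60.0 FPKM in the PBS-titled libraries and 70.2, 69.1 and 67.2 FPKM in the Ep1 libraries (log2 difference -0.23, SE 0.06, adjusted p = 0.0931). Over 14 epithelial junction genes 0 were called, and 4 were higher and 3 lower without overlap. Of 10 mesenchymal genes 0 were called, 1 was higher and 4 lower without overlap, and the median was -0.15. SPARC, a matrix glycoprotein, was the one higher, at 435, 454 and 462 FPKM in the PBS-titled libraries and 394, 375 and 398 FPKM in the Ep1 libraries. VIM, the intermediate filament vimentin, measured 1889, 1827 and 1716 FPKM in the PBS-titled libraries and 1983, 2116 and 1969 FPKM in the Ep1 libraries (log2 difference -0.16, SE 0.05, adjusted p = 0.131). CDH2, the cadherin of mesenchymal and neural cells, measured 55.2, 53.05 and 55.1 FPKM in the PBS-titled libraries and 62.3, 67.4 and 61.7 FPKM in the Ep1 libraries (log2 difference -0.22, adjusted p = 0.107). The matrix and protease list, which does not hold MMP13, had 6 genes higher and 3 lower without overlap among 17 tested, with 0 called.

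Growth genes were grouped by phase of the cell cycle and by process. Of 34 DNA replication genes 0 were called, 10 were higher and 0 lower without overlap, beside 12.8% and 10.9% of all tested genes, and the median was 0.10. TYMS, which makes thymidylate, measured 147, 152 and 147 FPKM in the PBS-titled libraries and 136, 135 and 125 FPKM in the Ep1 libraries (log2 difference 0.17, SE 0.05, adjusted p = 0.107). Of 25 mitosis genes 0 were called, 0 were higher and 1 lower without overlap, and the median was -0.03. Of 32 spliceosome genes 0 were called, 12 were higher and 1 lower without overlap, beside the same shares of all tested genes, and the median was 0.11. SNRPF, a core protein of the spliceosomal small nuclear ribonucleoproteins, measured 195, 198 and 207 FPKM in the PBS-titled libraries and 170, 146 and 137 FPKM in the Ep1 libraries (log2 difference 0.41, SE 0.07, adjusted p = 0.0593). SRSF1, a splicing factor, measured 281, 275 and 262 FPKM in the PBS-titled libraries, against 228, 219 and 186 FPKM in the Ep1 libraries (log2 difference 0.37, SE 0.08, adjusted p = 0.0714).

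Of 76 listed nuclear genes of oxidative phosphorylation, 55 were in the table and were tested. Of these 0 were called, 10 were higher and 0 lower without overlap, and the median was 0.09. The shares of all tested genes were 12.8% higher and 10.9% lower without overlap. Without Ep1_1, 19 were called higher and 1 lower, beside 9.21% and 6.81% of all genes in that fit. NDUFV1, a complex I subunit, measured 70.9, 71.6 and 71.9 FPKM in the PBS-titled libraries and 63.1, 53.3 and 54.0 FPKM in the Ep1 libraries (log2 difference 0.33, SE 0.07, adjusted p = 0.0689). Of 69 mitochondrial ribosomal protein genes 1, MRPL27, rose, and 13 were higher and 5 lower without overlap. Of 69 cytosolic ribosomal protein genes 0 were called, and 11 were higher and 7 lower without overlap, a split close to that of all tested genes. Many of these ribosomal genes have near-identical copies, so their values are uncertain. Of 23 autophagy genes 0 were called, 1 was higher and 6 lower without overlap, and the median was -0.08; NBR1, a receptor for autophagy cargo, measured 32.3, 32.4 and 35.5 FPKM in the PBS-titled libraries and 39.8, 40.2 and 41.9 FPKM in the Ep1 libraries (log2 difference -0.28, SE 0.06, adjusted p = 0.0689). Of 27 lysosome genes 0 were called, and 0 were higher and 4 lower without overlap.

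**Figure D4:**
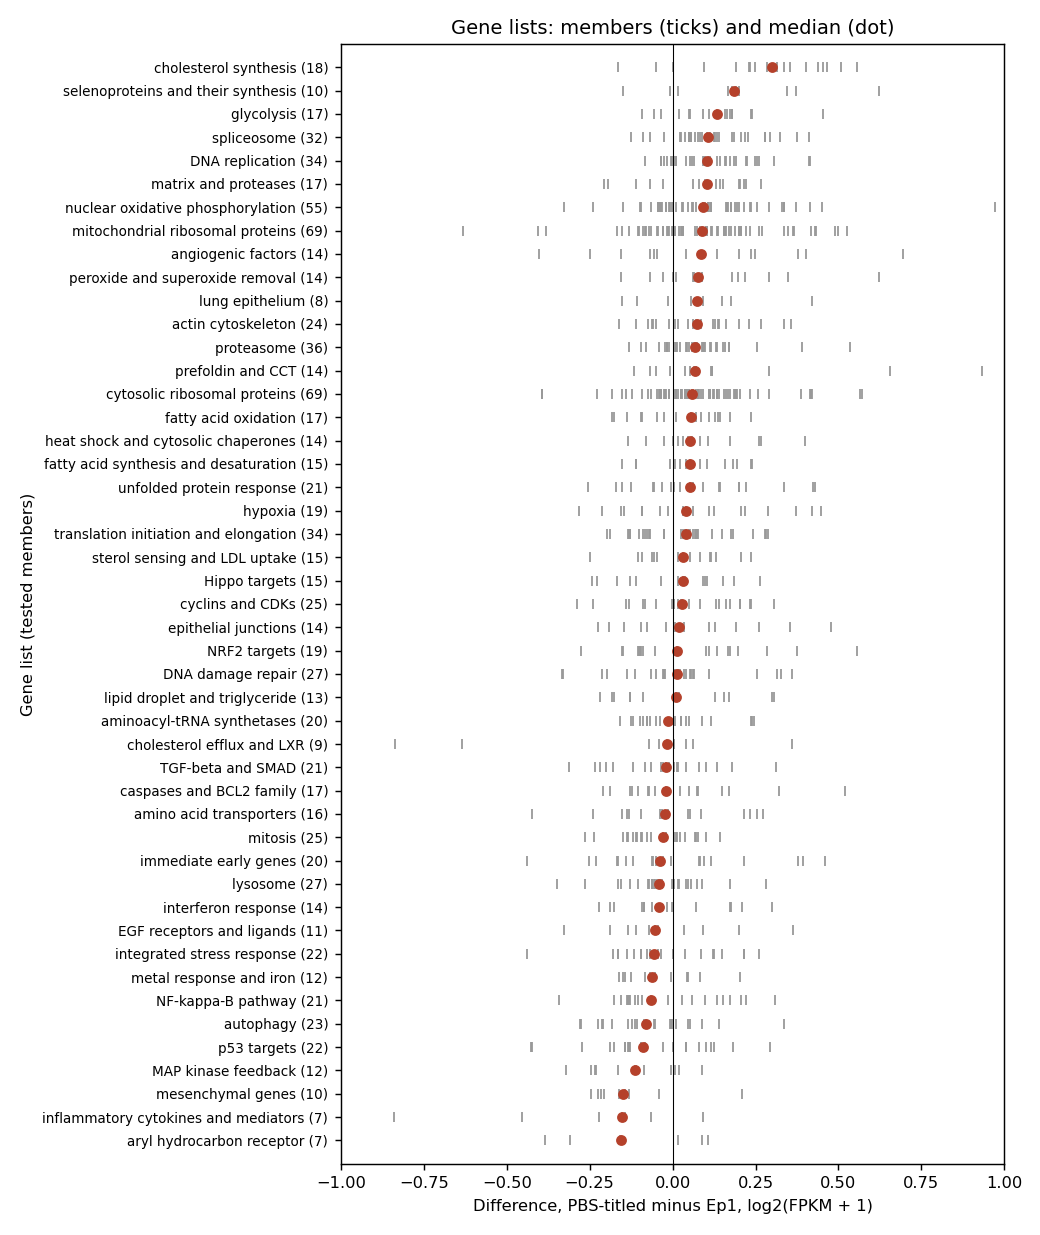
Log2 difference, PBS-titled minus Ep1 (horizontal axis), of each tested member (grey ticks) and the median (red dot) of 47 gene lists (vertical axis, with the number of tested members). Cholesterol synthesis has the highest median at 0.30 and the aryl hydrocarbon receptor list the lowest at -0.156, with the inflammatory (-0.154) and mesenchymal (-0.151) lists close to it. Most medians lie within 0.1 of 0, and members of most lists lie on both sides of 0.

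The genes with the largest differences were mostly not called. DAD1, a subunit of the oligosaccharyltransferase, measured 3.81, 5.82 and 4.81 FPKM in the PBS-titled libraries and 76.9, 46.5 and 19.1 FPKM in the Ep1 libraries (log2 difference -2.87, SE 0.81, adjusted p = 0.106). The groups did not overlap, and the Ep1 libraries differed widely among themselves. The Ep2 libraries did so as well, at 45.4, 3.45 and 2.56 FPKM, so DAD1 varied as widely inside a group. EHD3, a protein of membrane recycling, measured 7.14, 6.15 and 5.95 FPKM in the PBS-titled libraries and 3.87, 3.51 and 2.64 FPKM in the Ep1 libraries (log2 difference 0.78, SE 0.14, adjusted p = 0.0593). TNFSF18, a ligand of the tumour necrosis factor family, measured 3.11, 5.56 and 5.26 FPKM in the PBS-titled libraries and 7.496, 8.33 and 10.2 FPKM in the Ep1 libraries (log2 difference -0.80, SE 0.18, adjusted p = 0.0766). ARHGDIB, a regulator of small GTPases, measured 11.2, 8.51 and 9.45 FPKM in the PBS-titled libraries, against 13.7, 13.6 and 15.6 FPKM in the Ep1 libraries (log2 difference -0.52, SE 0.09, adjusted p = 0.0593).

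Another group of genes, picked from those called without Ep1_1, set Ep1_1 beside the PBS-titled libraries. PFDN6, a subunit of the chaperone prefoldin, measured 52.5, 51.2 and 43.6 FPKM in the PBS-titled libraries and 42.7, 19.6 and 18.8 FPKM in the Ep1 libraries (log2 difference 0.93, SE 0.24, adjusted p = 0.0932, and 0.000528 without Ep1_1). PFDN2, of the same complex, measured 92.8, 94.5 and 90.7 FPKM in the PBS-titled libraries and 81.6, 50.4 and 48.5 FPKM in the Ep1 libraries (log2 difference 0.66, SE 0.17, adjusted p = 0.0944, and 0.00275 without Ep1_1). The Ep1_1 value of both genes lay near the PBS-titled values and far above the other Ep1 values. LSM7, of the LSM ring that binds U6 RNA and takes part in mRNA decay, measured 31.1, 32.6 and 25.8 FPKM in the PBS-titled libraries and 30.5, 17.1 and 11.4 FPKM in the Ep1 libraries, so that Ep1_1 overlapped the PBS-titled range (adjusted p = 0.167, and 0.00736 without Ep1_1). MRPS15, of the small mitochondrial ribosomal subunit, showed the reverse, at 13.2, 11.5 and 17.3 FPKM in the PBS-titled libraries and 14.7, 24.7 and 29.0 FPKM in the Ep1 libraries (adjusted p = 0.130, and 0.00672 without Ep1_1). VPS13A, a lipid transfer protein, measured 8.92, 8.85 and 9.02 FPKM in the PBS-titled libraries and 9.34, 13.4 and 14.5 FPKM in the Ep1 libraries (adjusted p = 0.112, and 0.00236 without Ep1_1). In none of the 17 called genes was Ep1_1 nearer to the PBS-titled mean than to the mean of the other Ep1 libraries. The same held for Ep1_2 and Ep1_3. A small spread within the groups is part of what makes a call, so this is not a separate result. Without Ep1_1, 1085 genes were called higher and 802 lower.

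Gene length moved with the difference and with Ep1_1. The median log2 difference was 0.06 over 1532 genes of at most 1000 bases, 0.05 over 2528 genes of over 1000 and at most 2000 bases, 0.01 over 3959 genes of over 2000 and at most 4000 bases and -0.04 over 3821 genes of over 4000 bases. Of the shortest class 230 genes were higher and 111 lower without overlap, and of the longest class 326 were higher and 562 lower. Against the Ep1 mean, the shortest genes had a median of 0.0749, 0.0952 and 0.0618 in PBS columns 1, 2 and 3 and of 0.0694, -0.0391 and -0.0345 in Ep1_1, Ep1_2 and Ep1_3. The longest genes had medians of -0.0460, -0.0541 and -0.0295 in the PBS columns and of -0.0427, 0.0168 and 0.0301 in the Ep1 libraries. Ep1_1 followed the PBS-titled libraries in both classes. With the trend on length taken off, 16 of the 17 genes were still called, among 38 genes in all. The call of SDF2L1 was lost (limma adjusted p = 0.0651). In that fit 10 of 47 list medians moved by more than the spread between libraries, and 3 changed sign.

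**Figure D5:**
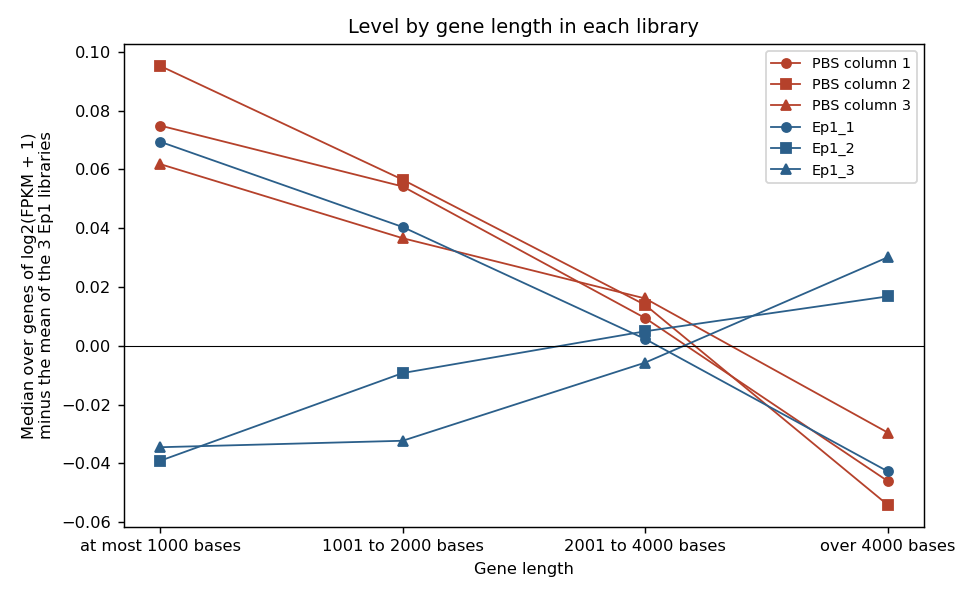
Median over genes of log2(FPKM + 1) minus the mean of the 3 Ep1 libraries (vertical axis) in 4 classes of gene length (horizontal axis), for each PBS-titled library (red) and each Ep1 library (blue). Short genes are higher and long genes lower in the PBS-titled libraries and in Ep1_1 than in Ep1_2 and Ep1_3, with medians between -0.0541 and 0.0952.

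Hardly any gene was present in one group only. In the PBS-titled libraries 28 genes were above 0 in all 3 while listed at 0 in all 3 Ep1 libraries, with no value over 1.41 FPKM. The reverse held for 40 genes, with no value over 1.15 FPKM. Genes with at least 1 FPKM in each PBS-titled library and less than 1 FPKM in each Ep1 library numbered 15, with a highest value of 2.77 FPKM, and the reverse 19, with a highest value of 2.38 FPKM. Among the 15 was ADAMTS15, a matrix protease, at 2.42, 1.79 and 1.23 FPKM in the PBS-titled libraries and 0.973, 0.888 and 0.940 FPKM in the Ep1 libraries, named here after its values were seen, as was NR1H3. At these levels a value rests on few fragments.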

How the data were processed

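The authors deposited 1 table of FPKM, fragments per gene scaled to gene length and library size, per the file headers. The submitters' processing notes name Bowtie 0.12.2 and the mouse build mm8, whereas the identifiers are of ferret genes. Which build the values rest on is therefore unsettled, and coordinates are left out. For the counter, the annotation and the strand setting, nothing is given in the sources used here. Near-identical, overlapping or antisense genes have uncertain values for that reason. Of 28494 identifiers, 22335 had a symbol found in the reference gene table, which is of another assembly.

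Fragments per library were recovered from the steps of the deposited FPKM; value times length gave whole fragments for 100% of values, within 0.02. No library was a duplicate of another. Log2(FPKM + 1) values of all 9 libraries were fitted with limma 3.58.1 (R 4.3.3), with a mean for each group, an intensity trend and no block. Tests were two-sided, with Benjamini-Hochberg adjustment over 11840 genes and a threshold of 0.05. The fit was also run on simulated data with independent noise for each gene and library. That simulation held no outlying library and no trend on gene length. It therefore cannot speak to how these affect the calls. Intervals are limma's 95% intervals.

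Named genes were those called that have a symbol, called members or else up to 3 members with the lowest p of each list, the 10 largest differences without overlap in each direction (mean of at least 5 FPKM in a group), the 10 largest called without Ep1_1 in each direction, and a fixed set of sterol, stress and cell type genes. Members and lists were chosen with earlier results of these data known. Alternatives were other pseudocounts, minimums and scalings, no trend, library weights, only the 6 libraries, voom on the recovered fragments, removal of the length trend, a replicate block and each library left out. A few single genes are left out of the text but entered the fit and the list counts.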

Additional observations from a re-analysis of the deposited data

How the results depend on the processing

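The count of 17 called genes moved by over 1.5 times under 7 alternatives that kept all 9 libraries. It was 0 with no minimum on FPKM (3003 genes at an unadjusted p under 0.05, 19299 genes tested), 79 with a minimum of 5 FPKM, 11 without the intensity trend, 3593 with library weights, which gave Ep1_2 a weight of 3.25 and Ep1_1 one of 0.319, 36 with a replicate block, 547 with voom on the recovered fragments and 38 without the length trend. As each library was left out it ranged from 0 (without Ep1_2, 1821 genes at an unadjusted p under 0.05) to 1887 (without Ep1_1); it was 3 without Ep1_3, 8 and 9 without PBS columns 1 and 2, 47 without PBS column 3, 27 without Ep2_1 and 8 without Ep2_3. The causes were not tested. The deviations of same-numbered libraries had correlations of -0.152 to 0.173 over genes. Between Ep1 and Ep2 libraries these were 0.152, 0.0720 and 0.0647. The PBS columns cannot be matched to single titles, so this check cannot decide whether same-numbered libraries form pairs. Of 150 named genes under 21 alternatives, directions reversed in 4 cases: NKX2-1 without Ep1_2 (-0.0171, with up to 0.109 without Ep1_1), and KRT8 without PBS column 3 (0.00688), Ep1_1 (0.0660) or Ep1_2 (0.0212), with -0.125 without Ep1_3. Of 47 list medians under the same alternatives, 79 of 987 values moved by more than the spread between libraries, and 29 lists never changed sign. The median of cholesterol synthesis ran from 0.23 to 0.40 and that of the aryl hydrocarbon receptor list from -0.20 to -0.11. Medians near 0 changed sign, among them those of efflux and LXR genes (-0.04 to 0.00457), sterol sensing and uptake (-0.03 to 0.10), the unfolded protein response (-0.00953 to 0.09), fatty acid synthesis (-0.00122 to 0.11) and cytosolic ribosomal proteins (-0.01 to 0.10). At 12469849 to 13533480 fragments a library, differences of genes near 1 FPKM rest on few fragments.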

Other observations

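Protein turnover and translation genes not described above had small differences. Of 36 proteasome genes 0 were called, and 6 were higher and 2 lower without overlap; PSMB10, a subunit of the immunoproteasome, measured 10.4, 12.1 and 11.5 FPKM in the PBS-titled libraries and 8.85, 8.80 and 7.53 FPKM in the Ep1 libraries (log2 difference 0.39, SE 0.08, limma adjusted p = 0.0689). Of 34 translation initiation and elongation genes 0 were called, and 6 were higher and 5 lower without overlap. EIF5A, a translation factor that carries hypusine, measured 800, 784 and 720 FPKM in the PBS-titled libraries and 692, 629 and 579 FPKM in the Ep1 libraries (log2 difference 0.28, SE 0.07, adjusted p = 0.0888). Of 20 aminoacyl-tRNA synthetase genes 2 were higher and 6 lower without overlap. Of 16 amino acid transporter genes 4 were higher and 1 lower without overlap. Overlapping genes included, 7 of the 16 had a difference above 0 and 9 below 0. The gene lower without overlap was SLC38A2, a carrier of neutral amino acids. It measured 122, 119 and 146 FPKM in the PBS-titled libraries and 161, 175 and 184 FPKM in the Ep1 libraries (log2 difference -0.42, SE 0.09, adjusted p = 0.0689).

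Cytoskeleton and signalling genes were mixed as well. Of 24 actin cytoskeleton genes 0 were called, and 7 were higher and 1 lower without overlap. TPM1, a tropomyosin, measured 145, 144 and 137 FPKM in the PBS-titled libraries and 118, 121 and 116 FPKM in the Ep1 libraries (log2 difference 0.27, SE 0.05, adjusted p = 0.0606), and VCL, vinculin, was the lower one, at 62.05, 60.05 and 63.0 FPKM in the PBS-titled and 67.2, 70.3 and 69.9 FPKM in the Ep1 libraries. KLF6, an immediate early zinc finger factor, measured 24.95, 23.0 and 19.6 FPKM in the PBS-titled libraries and 16.3, 18.2 and 16.0 FPKM in the Ep1 libraries (log2 difference 0.39, SE 0.09, adjusted p = 0.0735). Of 14 interferon response genes 2 were higher and 0 lower without overlap, and of 21 TGF-beta and SMAD genes 1 was higher and 2 were lower without overlap.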
